A study of Rattus norvegicus with 24 samples.

Results

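The miR-181 family, 5p arms, consists of rno-miR-181a-5p, rno-miR-181b-5p, rno-miR-181c-5p and rno-miR-181d-5p, the 4 mature microRNAs (miRs) taken by name from the 758 rat miRs on the array. They were measured in INS1 cells, a rat pancreatic beta-cell line, on 24 Agilent one-colour arrays, 3 for each of 8 groups. After 48 h of culture, cells received 125 nM of Givinostat, an inhibitor of histone deacetylases, or none, and 1 h later 150 pg/ml of IL-1β with 0.1 ng/ml of IFN-γ, or none. RNA was taken at 6 h (groups 6h_Ctrl without agents, 6h_Cyt with cytokines, 6h_Giv_Ctrl with Givinostat and 6h_Giv_Cyt with both) or at 24 h (24h_Ctrl, 24h_Cyt, 24h_Giv_Ctrl and 24h_Giv_Cyt, likewise). The series text calls the 3 arrays of a group technical replicates, so every p-value below measures a spread between arrays that may be technical. Of 4 beta-cell markers, rno-miR-375-3p, rno-miR-7a-5p and rno-miR-204-5p were well above background on all 24 arrays and rno-miR-184 on none. Of 15 markers of blood, liver, muscle, endothelium, fibroblasts and acinar cells, 12 were well above background on no array, and rno-miR-206-3p, a muscle marker, was so on all 24.

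A miR guides an Argonaute protein to messenger RNAs by pairing through its seed, near its 5′ end, and lowers the output of those messages, so miRs with the same seed have many possible targets in common. The miR-181 genes lie in clusters that make miR-181a with miR-181b, or miR-181c with miR-181d, as paired hairpins. The family is best known from lymphocytes, where miR-181a sets the sensitivity of the T cell receptor, and from inflammation, where miR-181b lowers an importin that carries NF-κB, a transcription factor that cytokines such as IL-1β activate in beta cells, into the nucleus.

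The mature sequences, from RefSeq (GRCr8) and matched by name for 4 of 4 members, are shown because all members carry 1 and the same seed and differ only outside it. They are written 5′ to 3′, with the seed (bases 2 to 8) in capitals.
rno-miR-181a-5p: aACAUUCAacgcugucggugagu
rno-miR-181b-5p: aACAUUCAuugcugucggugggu
rno-miR-181c-5p: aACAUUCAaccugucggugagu
rno-miR-181d-5p: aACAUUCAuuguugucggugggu

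Counted from 1 at the 5′ end of rno-miR-181a-5p, rno-miR-181b-5p differed from it by A9U, C10U and A21G. The sequence of rno-miR-181c-5p differed from rno-miR-181a-5p by the single deletion G11del, which leaves 22 bases in place of 23. The sequence of rno-miR-181d-5p differed from rno-miR-181a-5p by A9U, C10U, C12U and A21G, and from rno-miR-181b-5p by C12U alone. Of the 758 miRs on the array, 685 were matched by name to a mature sequence, and 0 of these outside the family had its seed.

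Each member was measured by a longer and a shorter probe, each spotted 8 times on an array. The longer probes are shown because they decide which member a signal can be assigned to, with capitals at the bases that face the 5 positions (9, 10, 11, 12 and 21 of rno-miR-181a-5p) at which the members differ.
rno-miR-181a-5p longer probe: acTcaccgacaGCGT
rno-miR-181b-5p longer probe: acCcaccgacaGCA
rno-miR-181c-5p longer probe: acTcaccgacaGGTtgaat
rno-miR-181d-5p longer probe: acCcaccgacaACAAtg

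The probe of rno-miR-181a-5p pairs with bases 9 to 23 of its miR and that of rno-miR-181b-5p with bases 10 to 23, so neither reaches the seed. The probe of rno-miR-181d-5p pairs with bases 7 to 23 and would meet rno-miR-181b-5p with 1 mismatch, U12C, and rno-miR-181a-5p with 4. Both the longer and the shorter probe of rno-miR-181b-5p would meet rno-miR-181d-5p with 1 mismatch, C12U. The shorter one would also meet rno-miR-181a-5p with 1, G21A. How far a member was captured by the probe of another was not tested. In the files, which map probes to rn4, the rno-miR-181a-5p probe lies at chr3:18650950-18650964 and chr13:51132539-51132553, and the rno-miR-181b-5p probe at chr3:18652030-18652043 and chr13:51132722-51132735. The rno-miR-181c-5p probe lies at chr19:25667411-25667428 and the rno-miR-181d-5p probe at chr19:25667584-25667599, each span 1 base shorter than its probe of 19 or 17 bases.

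Most of the family lay at background in INS1 cells. Being well above background on an array required that the scanner software marked at least 8 of the 16 spots of a miR so, and 534 of 758 miRs met this on no array. By that rule rno-miR-181a-5p, rno-miR-181b-5p and rno-miR-181c-5p were not well above background on any of 24 arrays, and rno-miR-181d-5p was on 5. Those 5 arrays were 24h_Ctrl replicates 1 and 2, 24h_Cyt replicates 1 and 3, and 24h_Giv_Cyt replicate 1.

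Of 384 spots per member, the marked ones numbered 0 for rno-miR-181a-5p, 1 for rno-miR-181b-5p, 6 (1.56%) for rno-miR-181c-5p and 123 for rno-miR-181d-5p. The longer probe of rno-miR-181d-5p held 112 of its marks and the shorter probe, 1 base shorter, held 11, each over 192 spots. With the longer probe alone, at least 4 of 8 spots were marked on 17 of 24 arrays, among them all 3 of 24h_Ctrl, all 3 of 24h_Cyt and all 3 of 6h_Ctrl. The scanner software's own detection flag, a separate call per miR, was set for rno-miR-181d-5p on all 24 arrays, for rno-miR-181c-5p on 4 and for rno-miR-181a-5p and rno-miR-181b-5p on 0.

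**Figure D1:**
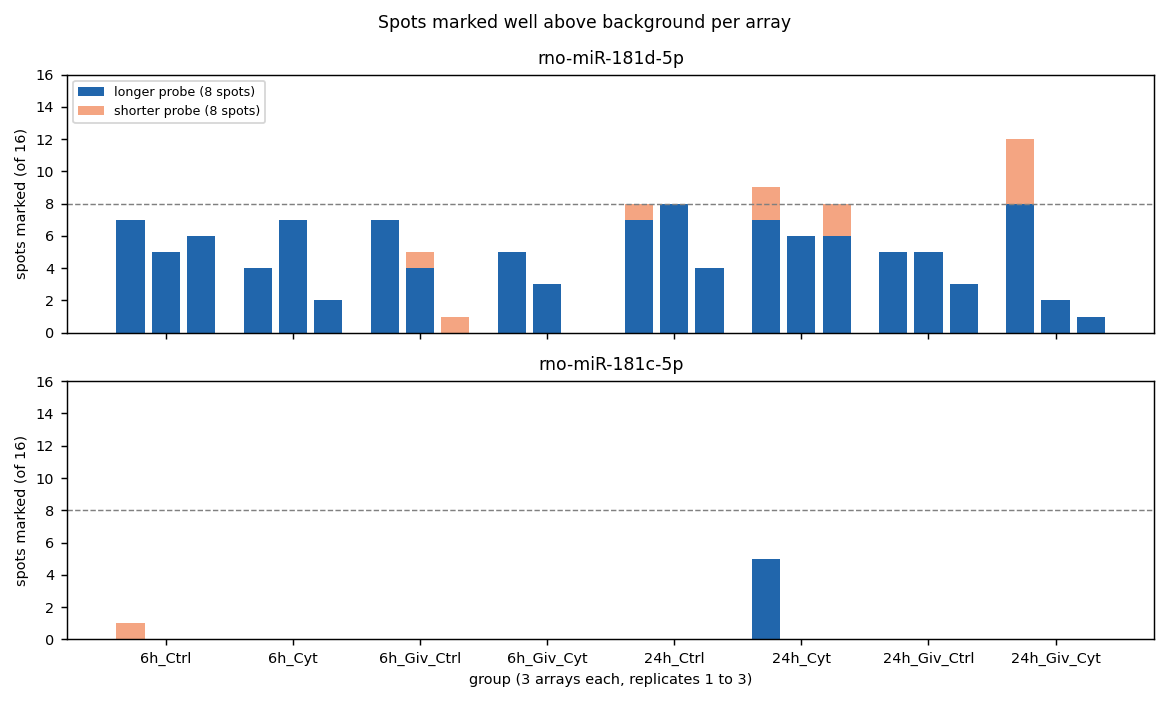
Number of spots, of 16 per array, that the scanner software marked well above background for rno-miR-181d-5p (top) and rno-miR-181c-5p (bottom) on each of the 24 arrays, split by probe, with the dashed line at 8 spots. The marks of rno-miR-181d-5p lie mostly on its longer probe (112 of 123), and rno-miR-181c-5p has 6 marks in all, 5 of them on 24h_Cyt replicate 1.

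Signals below are log2 of the quantile-normalized foreground intensity, averaged over the 16 spots of a miR. In 24h_Ctrl, rno-miR-181d-5p measured 6.12, 6.04 and 6.06 on replicates 1 to 3, and in 24h_Cyt 5.89, 5.90 and 5.96. In 24h_Giv_Ctrl it measured 6.11, 6.05 and 6.07, and in 24h_Giv_Cyt 5.92, 5.97 and 5.98. Without and with Givinostat, all 3 arrays with cytokines at 24 h lay below all 3 without, with no overlap. Arrays did not overlap, in either direction, for 278 (36.7%) and 179 (23.6%) of 758 miRs in these comparisons. Without normalization between arrays the differences of rno-miR-181d-5p had the other sign (0.18 and 0.22).

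At 6 h, rno-miR-181d-5p measured 6.05, 6.13 and 6.13 in 6h_Ctrl and 6.00, 6.00 and 6.07 in 6h_Cyt. It measured 6.07, 5.97 and 6.10 in 6h_Giv_Ctrl and 6.10, 6.03 and 6.06 in 6h_Giv_Cyt. Each pair of groups at 6 h overlapped. The group means ran from 6.10 (SD 0.049, n = 3) in 6h_Ctrl through 24h_Giv_Ctrl, 24h_Ctrl, 6h_Giv_Cyt, 6h_Giv_Ctrl, 6h_Cyt and 24h_Giv_Cyt to 5.92 (SD 0.039, n = 3) in 24h_Cyt. Among the 7 neighbouring pairs of this order, the step from 6h_Cyt to 24h_Giv_Cyt (0.069) exceeded the residual SD of 0.044, and the other 6 did not.

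**Figure D2:**
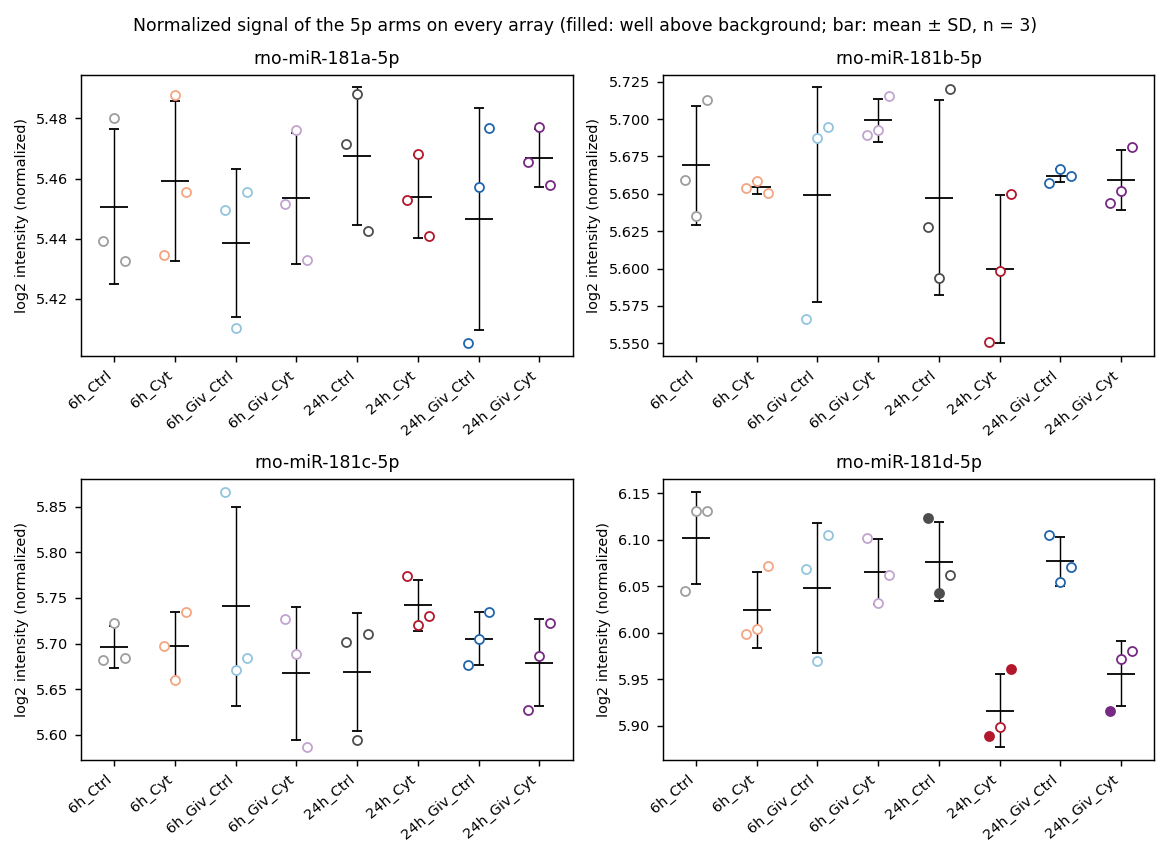
Normalized log2 intensity of each 5p arm on each array (circles, 3 per group; filled where the miR was well above background on that array), with the group mean and SD (n = 3) as bars and a separate axis per panel. The 24h_Cyt and 24h_Giv_Cyt arrays of rno-miR-181d-5p, between 5.89 and 5.98, lie below the 24h_Ctrl and 24h_Giv_Ctrl arrays, between 6.04 and 6.12. Without normalization between arrays the differences of group means have the other sign (0.18 and, with Givinostat, 0.22). In the scanner software's background-subtracted intensity, 24h_Giv_Cyt (from 21.4) and 24h_Giv_Ctrl (up to 22.0) overlap.

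No slide held both groups of 24h_Cyt vs 24h_Ctrl, so cytokines and slide cannot be told apart there. In this comparison, with against without cytokines for a day, 1 member was called, rno-miR-181d-5p. It is known from glioma cells for lowering the mRNA of the DNA repair enzyme MGMT. In limma, a linear model fitted over all 758 miRs, its normalized signal was lower in 24h_Cyt by a log2 fold change of -0.16 (SE 0.035, 95% confidence interval -0.23 to -0.086, adjusted p = 0.0108), whereas the same difference was 0.18 without normalization between arrays. A call needed an absolute log2 fold change above 0.138 (1.1-fold) and an adjusted p below 0.05. The threshold is the log2 cutoff of the study, whose methods state a larger fold change for it, 0.20 in log2. At that higher threshold, added after seeing the data, the call of rno-miR-181d-5p, the only one in the family, is lost. That made 1 of 4 members called, against 31 of 758 miRs (4.09%), of which 11 (1.45% of 758) were lower in 24h_Cyt. The background rule was met on 2 of 3 arrays in each group. The pooled correlation fit, which treats the 16 spots of a miR as correlated values, called the same member (adjusted p = 0.00327) and 48 of 758 miRs (6.33%). The groups of rno-miR-181d-5p and rno-miR-181c-5p did not overlap, and neither did those of 278 of 758 miRs (36.7%). In total RNA from a culture, fewer cells that hold a miR and less of it per cell cannot be told apart.

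The direction depended on the scaling of the arrays. Before normalization, the processed intensity of rno-miR-181d-5p (the scanner software's background-subtracted value) was 15.6, 15.8 and 17.0 in 24h_Ctrl and 26.3, 25.5 and 23.1 in 24h_Cyt. In this measure the cytokine arrays were the higher ones, again with no overlap. Both probes gave this, with a mean processed intensity higher in 24h_Cyt by 9.68 on the longer and 7.98 on the shorter probe, and log2 fold changes after normalization of -0.23 and -0.089.

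The 24h_Cyt arrays were also brighter as a whole. Taking the 117 miRs that met the background rule on all 24 arrays, the 75th percentile of processed intensity was 347, 271 and 347 on the 24h_Ctrl arrays and 1003, 742 and 596 on the 24h_Cyt arrays. On 6h_Giv_Ctrl replicate 1, without cytokines, it was 682, above 24h_Cyt replicate 3. That array lay on slide 1 with 24h_Cyt replicates 1 and 2, and only the arrays of slide 1 carried project label 1. Without normalization, the median log2 fold change in 24h_Cyt vs 24h_Ctrl was 0.70 over the 168 miRs that met the background rule on every array of some group, -0.014 over the 534 that met it on no array, and 0.035 over all 758. The value of rno-miR-181d-5p, 0.18, thus lay between those of the bright miRs and of the miRs at background, and 138, 148 and 143 miRs were brighter than it on the 24h_Ctrl arrays against 185, 186 and 164 on the 24h_Cyt arrays. The part of array brightness in its call was not tested beyond a fit with brightness as a covariate, added after seeing the data, which gave -0.11 (adjusted p = 0.386) without a call.

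Over the 24 arrays, as a description, normalized rno-miR-181d-5p had a Pearson r of -0.76 (Spearman -0.68) with the log2 of array brightness, and r was 0.50 (Spearman 0.57) without normalization. Without the brightest arrays, 24h_Cyt replicates 1 and 2, r was -0.61 and 0.49 over 22 arrays. Over the 18 arrays outside 24h_Cyt and 24h_Giv_Cyt it was -0.30 and 0.12. The arrays share the groups and slides of the design, so these values do not separate brightness from treatment.

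**Figure D3:**
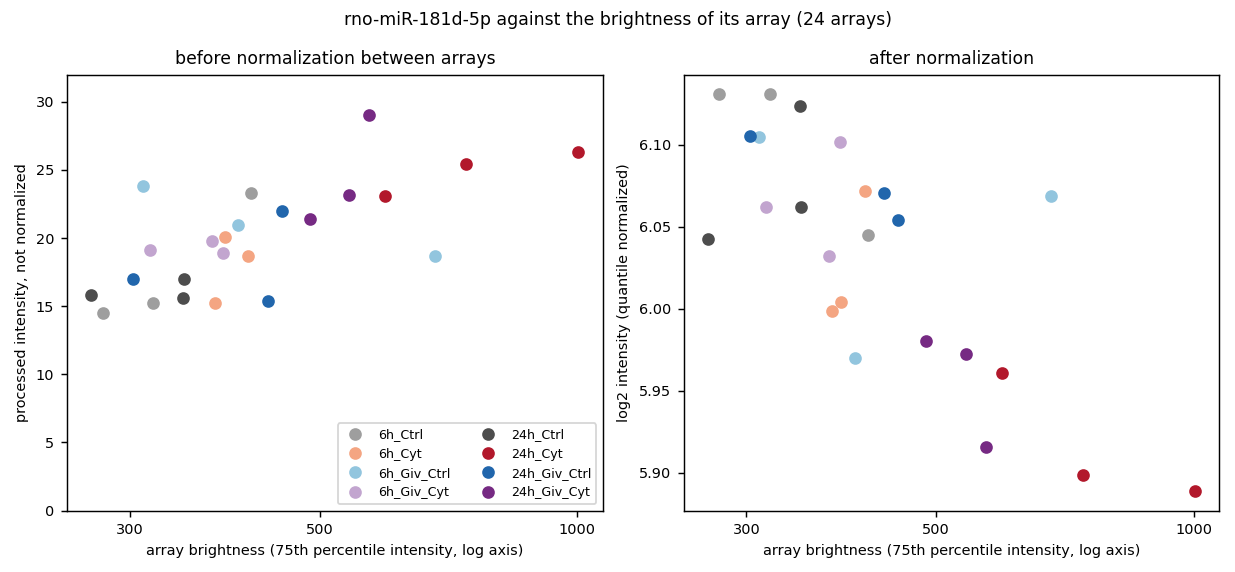
Processed intensity of rno-miR-181d-5p before normalization (left) and normalized log2 intensity (right) against the brightness of the array (75th percentile of processed intensity, log axis), a point per array and a colour per group. The 24h_Cyt arrays are bright (596 to 1003) and have processed intensities of 23.1 to 26.3, above 24h_Ctrl, and normalized values of 5.89 to 5.96, below 24h_Ctrl.

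Among 20 alternative analyses that gave a value, rno-miR-181d-5p was called lower in 24h_Cyt in 9, lower without a call in 10 and higher without a call in 1, which had no normalization. The 9 include the pooled fit, the replicate block, the fit of the compared groups alone and the fit without a log2 threshold. By construction these cannot move the log2 fold change, and the last cannot lose a call. Adjusted p ran from 0.00327 to 1 over these alternatives. Leaving out 24h_Ctrl replicate 1 (-0.14, adjusted p = 0.0652), 24h_Cyt replicate 1 (-0.15, 0.0651) or 24h_Cyt replicate 2 (-0.15, 0.0528) also ended the call. The 24h_Ctrl arrays shared slide 4, whereas 24h_Cyt lay on slides 1 and 2, so no slide held both groups. Leaving out slide 1 (-0.12) left 24h_Cyt replicate 3 alone in its group, so that the spread came from other groups. With the slide as a fixed block, estimated through the other groups, the log2 fold change was -0.19 (adjusted p = 0.46).

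**Figure D4:**
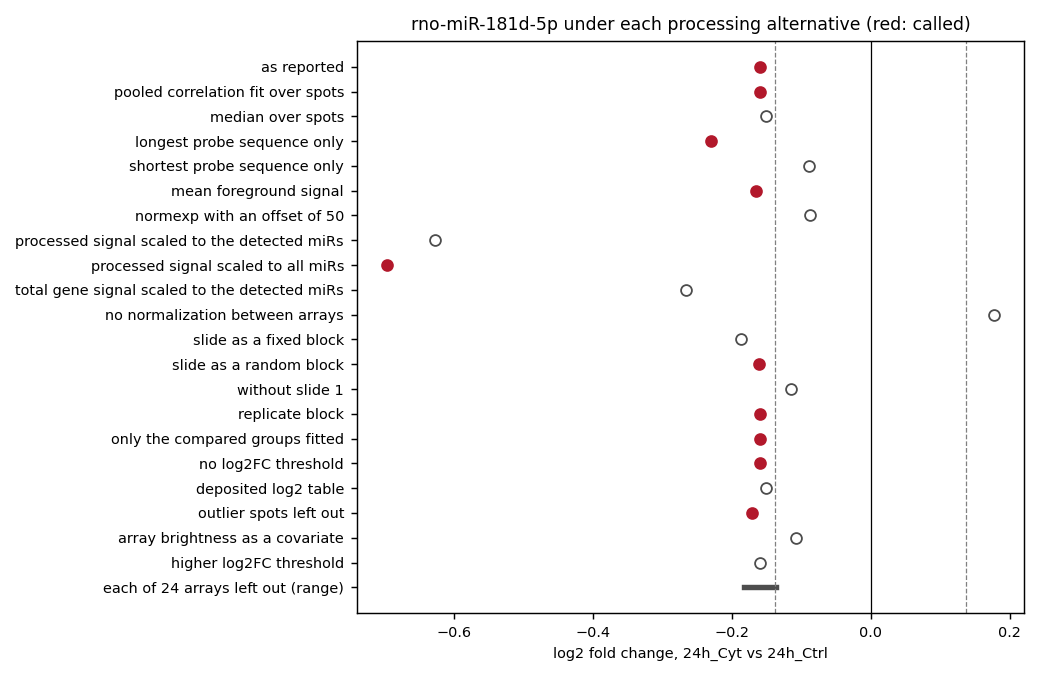
The log2 fold change of rno-miR-181d-5p in 24h_Cyt vs 24h_Ctrl as reported (-0.16), in each alternative analysis, and, as a bar, the range with each of 24 arrays left out; filled red circles mark calls and dashed lines the log2 fold change threshold of 0.138, which the higher threshold of 0.20 replaces in 1 alternative. The values run from -0.70 to 0.18, with the analysis without normalization between arrays as the positive one.

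With Givinostat before the cytokines, rno-miR-181d-5p was not called as reported, and the alternatives gave calls of either sign. It met the background rule on 1 of 3 24h_Giv_Cyt arrays and 0 of 3 24h_Giv_Ctrl arrays, so its size of difference is limited by background. In 24h_Giv_Cyt vs 24h_Giv_Ctrl the difference in log2 signal was -0.12 (SE 0.035, adjusted p = 0.135). Without normalization it was 0.22 and a call (adjusted p = 0.0374), beside 323 of 758 miRs called. With the processed signal scaled to all miRs it was -0.55 and a call (adjusted p = 0.046), beside 23 of 758. The total gene signal gave 0.0031, and adjusted p ran from 0.0374 to 1 over the alternatives. Within slides the difference was -0.082 on slide 3 (1 array against 2) and -0.16 on slide 4 (2 against 1), and with the slide as a fixed block -0.12 (adjusted p = 0.263). Without normalization the median of all 758 miRs moved by 0.18 in this comparison and by 0.13 and 0.16 in 24h_Giv_Cyt vs 24h_Cyt and vs 6h_Giv_Cyt. The negative-control spots of 24h_Giv_Cyt replicate 2 had a median intensity of 61, against 45 to 52 on the other arrays.

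Of 4 members, 0 were called by limma in 24h_Giv_Cyt vs 24h_Giv_Ctrl, against 4 of 758 miRs (0.528%), with 1 member and 93 of 758 miRs at an unadjusted p below 0.05. The pooled correlation fit called 0 members and 43 of 758 miRs (5.67%). That fit gave rno-miR-181d-5p an adjusted p of 0.0455, with a log2 fold change short of the threshold. The arrays of 1 member, rno-miR-181d-5p, did not overlap, against 179 of 758 miRs (23.6%). The difference between cells with and without cytokines under Givinostat, minus that without Givinostat, at 24 h, was 0.039 for rno-miR-181d-5p (SE 0.050, adjusted p = 0.951). Without slide 1, which leaves 24h_Cyt replicate 3 alone in its group, it was -0.0053. The pooled fit called 0 of 4 members and 22 of 758 miRs (2.90%) in this term.

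Between the cytokine groups of 6 h and 24 h, the normalized signal of rno-miR-181d-5p differed by -0.11 (SE 0.035, adjusted p = 0.16) in 24h_Cyt vs 6h_Cyt and by -0.11 (adjusted p = 0.258) in 24h_Giv_Cyt vs 6h_Giv_Cyt, and without normalization by 0.16 and 0.17. With the processed signal scaled to all miRs, rno-miR-181d-5p was called lower in 24h_Giv_Cyt vs 6h_Giv_Cyt (-0.41, adjusted p = 0.0472, the lowest among alternatives that reached 1), beside 11 of 758 miRs called. The 6 h groups met the background rule on 0 arrays, and 24h_Cyt and 24h_Giv_Cyt on 2 and 1 of 3. On the slides that held both groups the values were -0.077 (slide 2, 1 array against 2) and -0.085 (slide 3, 1 against 3), and with the slide as a fixed block -0.11 and -0.11. In 24h_Cyt vs 6h_Cyt, limma called 0 of 4 members and 6 of 758 miRs (0.792%), with 1 member and 104 of 758 miRs at an unadjusted p below 0.05. The pooled correlation fit called 0 members and 2.37% of all miRs. In 24h_Giv_Cyt vs 6h_Giv_Cyt limma called 0 of 4 and 3 of 758 (0.396%), with 1 member and 67 of 758 miRs below 0.05. The pooled fit called 0 members there (1.85% of all miRs). Arrays did not overlap for rno-miR-181d-5p and rno-miR-181b-5p in both, against 165 (21.8%) and 107 (14.1%) of 758 miRs. The value of 24h_Cyt vs 24h_Ctrl minus that of 6h_Cyt vs 6h_Ctrl was -0.083 (SE 0.050, adjusted p = 0.71) for rno-miR-181d-5p, and 0.20 without normalization. In this term limma called 0 of 4 members and 4 of 758 miRs (0.528%), and the pooled fit 0 of 4 and 21 of 758 (2.77%).

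At 6 h the cytokines left all 4 members without a call. In 6h_Cyt vs 6h_Ctrl, rno-miR-181d-5p had a difference in measured log2 signal of -0.078 (SE 0.035, unadjusted p = 0.0408, adjusted p = 0.999 in limma). By the background rule neither group was well above background on any array, as in every group of 6 h, so no fold is read from it or from the other differences at 6 h. The value was below 0 in all 13 separate alternatives that could move it, and -0.064 within slide 2 (2 arrays against 3). Limma called 0 of 4 members and 0 of 758 miRs (0%), with 1 member and 30 of 758 miRs at an unadjusted p below 0.05. The pooled fit called 0 members and 2 of 758 miRs (0.264%). The arrays of 0 members kept apart, against 43 of 758 miRs (5.67%). In 6h_Giv_Cyt vs 6h_Giv_Ctrl, groups that shared no slide, rno-miR-181d-5p differed by 0.018 (adjusted p = 0.998), a sign that 2 alternatives turned. In this comparison 0 of 4 members and 0 of 758 miRs (0%) were called, with 0 members and 26 of 758 miRs below an unadjusted p of 0.05. The pooled fit called 0 members (0% of all miRs). There, too, the arrays of 0 members kept apart, against 5.01% of 758 miRs.

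As reported, no member was called between cells with and without Givinostat at the same time. No slide held both groups of 6h_Giv_Cyt vs 6h_Cyt or of 24h_Giv_Cyt vs 24h_Cyt, so Givinostat and slide cannot be told apart there. The total gene signal gave a call of rno-miR-181c-5p in 24h_Giv_Cyt vs 24h_Cyt (-2.60, adjusted p = 0.00117), beside 5 of 758 miRs called, from values at the floor on 20 of 24 arrays. The differences of rno-miR-181d-5p were 0.041 in 6h_Giv_Cyt vs 6h_Cyt, -0.054 in 6h_Giv_Ctrl vs 6h_Ctrl, 0.040 in 24h_Giv_Cyt vs 24h_Cyt and 0.00046 in 24h_Giv_Ctrl vs 24h_Ctrl, and at least 1 alternative turned the sign of each. For 24h_Giv_Cyt vs 24h_Cyt that was the fit without slide 1 (-0.0048), with 24h_Cyt replicate 3 alone in its group. In the order given, limma called 0 of 4 members in each comparison, against 0, 0, 1 and 0 of 758 miRs (0%, 0%, 0.132% and 0%). Below an unadjusted p of 0.05 lay 0 members, against 24, 34, 38 and 32 of 758 miRs. The pooled fit called 0 members (2.77%, 0.660%, 3.17% and 0.396% of all miRs). In 6h_Giv_Cyt vs 6h_Cyt the arrays of rno-miR-181b-5p did not overlap, and neither did those of 63 of 758 miRs (8.31%). In the other 3 comparisons 0 of 4 members had arrays without overlap, against 4.35%, 16.6% and 10.2% of 758 miRs. Over time without cytokines, rno-miR-181d-5p differed by -0.026 in 24h_Ctrl vs 6h_Ctrl, and with Givinostat by 0.029 (24h_Giv_Ctrl vs 6h_Giv_Ctrl), signs that 2 alternatives turned in each. No slide held both groups of either comparison. In both, limma called 0 of 4 members and 0 of 758 miRs (0%), with 0 members below an unadjusted p of 0.05 (39 and 30 of 758 miRs). The pooled fit called 0 members in either (0.660% and 0.264% of all miRs). Arrays without overlap were found for 0 members in either, against 8.58% and 5.80% of 758 miRs.

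**Figure D5:**
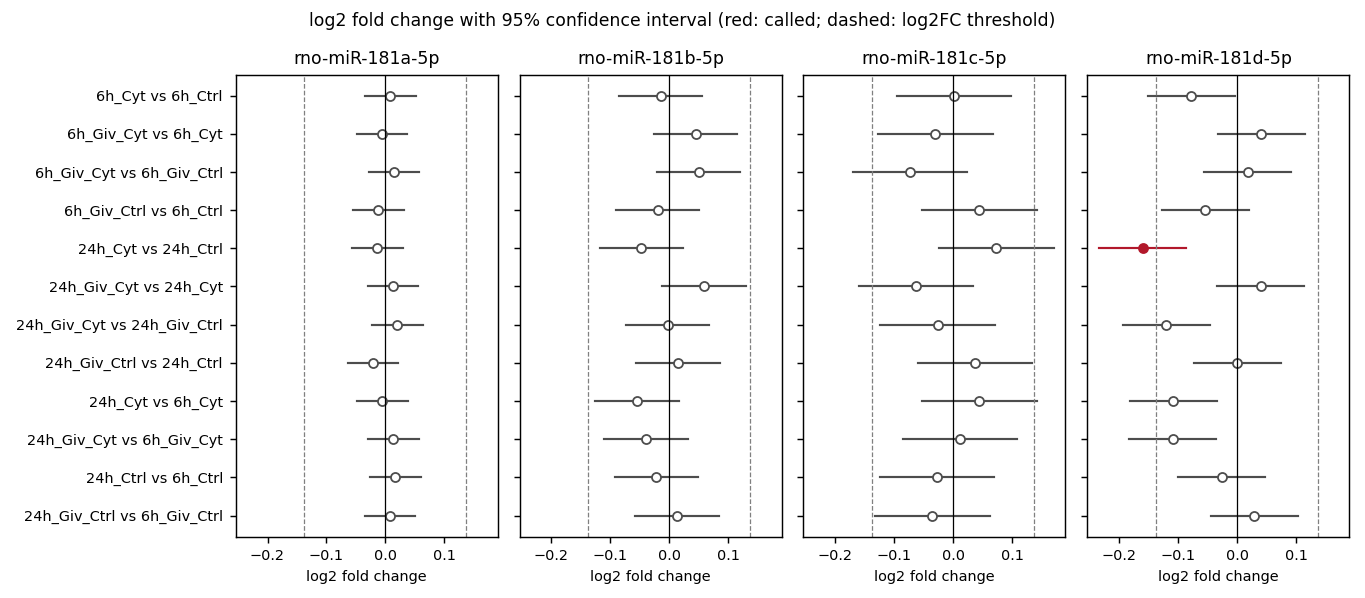
Normalized log2 fold change of each 5p arm in the 12 comparisons, with its 95% confidence interval from limma; the filled red point is the call and dashed lines are the log2 fold change threshold. The call is rno-miR-181d-5p in 24h_Cyt vs 24h_Ctrl at -0.16, which was 0.18 without normalization between arrays, and the 36 values of the other members lie between -0.073 and 0.073.

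The partner of rno-miR-181d-5p in its cluster, rno-miR-181c-5p, known from heart cells for lowering a mitochondrial subunit of cytochrome c oxidase, had a normalized difference of the other sign at 24 h, not well above background. Without normalization both miRs had positive differences (0.23 for rno-miR-181c-5p and 0.18 for rno-miR-181d-5p). With array brightness as a covariate both were negative (-0.085 and -0.11). On the normalized scale, rno-miR-181c-5p measured 5.70, 5.59 and 5.71 in 24h_Ctrl and 5.77, 5.72 and 5.73 in 24h_Cyt. The 24h_Cyt arrays lay above the 24h_Ctrl arrays by a narrow gap, and across all 24 arrays the highest value was 5.87 on 6h_Giv_Ctrl replicate 1 and the lowest 5.59 on 6h_Giv_Cyt replicate 3. The difference in measured signal was 0.073 (SE 0.046, adjusted p = 0.354), from which no fold is read because both groups were not well above background.

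Before normalization, the processed intensity of rno-miR-181c-5p was 4.16, 2.78 and 5.03 in 24h_Ctrl and 16.6, 13.3 and 10.2 in 24h_Cyt. The scanner software's detection flag was set on all 3 24h_Cyt arrays, on 6h_Giv_Ctrl replicate 1 and on no other. The difference was called in 3 alternatives. These were no normalization (0.23, adjusted p = 0.016), the processed signal scaled to detected miRs (0.50, 0.0492) and the total gene signal (2.60, 0.000488). In the last, all 3 24h_Ctrl arrays lay at the floor. In the order given, these fits called 173 (all higher), 69 and 50 of 758 miRs. Under none of the 6 alternative signals or scalings did the difference of rno-miR-181c-5p turn below 0. With array brightness as a covariate it was -0.085 (adjusted p = 0.456), and with the slide as a fixed block 0.0047 (adjusted p = 0.996). Adjusted p ran from 0.000488 to 1 over its alternatives. Brightness and normalized rno-miR-181c-5p had a Pearson r of 0.57 (Spearman 0.52) over 24 arrays, 0.54 without the 2 brightest, and 0.77 over the 18 arrays outside 24h_Cyt and 24h_Giv_Cyt. The part of array brightness in the difference was not tested further.

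The members whose probes map to both chr3 and chr13, rno-miR-181a-5p and rno-miR-181b-5p, were also not well above background on any of 24 arrays, and a mature signal cannot be assigned to either locus. For rno-miR-181a-5p the 24 log2 values ran from 5.41 to 5.49, and its processed intensity was below 0 on 22 arrays. For rno-miR-181b-5p they ran from 5.55 on 24h_Cyt replicate 1 to 5.72 on 24h_Ctrl replicate 3. Over rno-miR-181a-5p, rno-miR-181b-5p and rno-miR-181c-5p, limma called 0 of 36 member-by-comparison values, with 0 at an unadjusted p below 0.05, 0 called by the pooled correlation fit and a lowest adjusted p of 0.354. Among all 758 miRs, limma called 0 to 31 per comparison (0% to 4.09%) and the pooled fit 0 to 48 (0% to 6.33%). In limma, 24 to 180 of 758 had an unadjusted p below 0.05. Without normalization, the 24h_Giv_Cyt vs 24h_Giv_Ctrl differences of rno-miR-181a-5p (0.18, adjusted p = 0.0453) and rno-miR-181b-5p (0.21, adjusted p = 0.044) were called, beside 323 of 758 miRs (all higher) and a median of 0.18 over all miRs, and the normalized difference of rno-miR-181b-5p was -0.0029. The adjusted p of these differences reached 1 among the alternatives. Further calls of rno-miR-181c-5p were made in 24h_Cyt vs 6h_Cyt without normalization (0.19, adjusted p = 0.0459), in 24h_Ctrl vs 6h_Ctrl with the processed signal scaled to detected miRs (-0.53, 0.0491), and with the total gene signal, which put it at the floor on 20 of 24 arrays, in 24h_Cyt vs 6h_Cyt (2.60, 0.000976) and 24h_Giv_Cyt vs 24h_Cyt (-2.60, 0.00117). In this order, those fits called 122, 35, 8 and 5 of 758 miRs. The total gene signal also gave calls of rno-miR-181c-5p in the interaction terms for time (2.60, adjusted p = 0.0271) and for Givinostat at 24 h (-2.60, 0.0407). Both rest on values at the floor, among them all 3 24h_Ctrl arrays. How many of all 758 miRs this signal called in these terms was not counted.

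In the order of group means, 0 of 7 neighbouring pairs of rno-miR-181a-5p and 0 of 7 of rno-miR-181c-5p lay further apart than the residual SD. For rno-miR-181b-5p, 1 did, the step from 24h_Ctrl (5.65, SD 0.065, n = 3) down to 24h_Cyt (5.60, SD 0.050, n = 3), a difference of -0.047 (adjusted p = 0.42) that became 0.031 without normalization and 0.018 with the slide as a fixed block. Among the 12 interaction values of the 4 members, 0 were called, with 0 at an unadjusted p below 0.05, 0 called by the pooled fit and a lowest adjusted p of 0.71. Of 758 miRs, 71 were below an unadjusted p of 0.05 in the term for time, 39 in that for Givinostat at 24 h and 12 in that at 6 h. In the terms for cytokines with against without Givinostat, limma called 0 of 758 miRs (0%) at either time, and the pooled fit called 0.132% at 6 h.

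After normalization, Pearson correlations between pairs of members over 24 arrays, as a description and with 3 of 4 members near background, ran from -0.44 (rno-miR-181b-5p with rno-miR-181c-5p, Spearman -0.30) to 0.38 (rno-miR-181b-5p with rno-miR-181d-5p, Spearman 0.28). The cluster partners rno-miR-181c-5p and rno-miR-181d-5p had r = -0.0019 (Spearman 0.063), and rno-miR-181a-5p and rno-miR-181b-5p had r = -0.32 (Spearman -0.36). With array brightness, r was 0.10 for rno-miR-181a-5p, -0.62 for rno-miR-181b-5p (Spearman -0.44, and r = -0.37 without the 2 brightest arrays), 0.57 for rno-miR-181c-5p and -0.76 for rno-miR-181d-5p. Without normalization, the differences of all 4 members in 24h_Giv_Cyt vs 24h_Giv_Ctrl were positive and called (0.18, 0.21, 0.19 and 0.22 for rno-miR-181a-5p to rno-miR-181d-5p), next to 323 of 758 miRs called, all higher, and a median of 0.18 over all miRs.

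The 3p arms of the same hairpins stayed at background as well. All 6 on the array measured between 5.32 and 5.55 in log2, and 0 of their 2304 spots were marked. Limma called 0 of 72 values, with 3 at an unadjusted p below 0.05, 0 called by the pooled fit and a lowest adjusted p of 0.0712. Per comparison, limma called 0 to 31 of all 758 miRs (0% to 4.09%) and the pooled fit 0 to 48 (0% to 6.33%). In limma, 24 to 180 of 758 had an unadjusted p below 0.05.

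Among the 117 miRs that met the background rule on all 24 arrays, those with the pattern most like rno-miR-181d-5p over 24 arrays, chosen after the values were seen, were rno-miR-6216 (Pearson r = 0.89), rno-miR-129-5p (0.80) and rno-miR-494-3p (0.80). The arrays used for the choice include those of every comparison, so no test is given for them.

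Beside the family, a list of 16 miRs tied to inflammation had 6 called in 24h_Cyt vs 24h_Ctrl, against 31 of 758 miRs (4.09%), and a median log2 fold change of 0.071, against -0.011 over all 758 miRs. Over 21 alternatives the list had from 1 to 11 called, and the 11 came without normalization, where 173 of 758 miRs were called. With the slide as a fixed block or with array brightness as a covariate it was rno-miR-146a-5p alone, where 1 and 3 of all 758 miRs were called. The other calls thus depend on those choices, like that of rno-miR-181d-5p. The fit without slide 1 is not read here, because it leaves 24h_Cyt replicate 3 alone in its group. Of the 6 calls, 5 rose on the normalized scale, rno-miR-29b-3p (1.05), rno-miR-146b-5p (0.78), rno-miR-146a-5p (0.59), rno-miR-21-5p (0.57) and rno-miR-203a-3p (0.27). The background rule was met on 0 of 3 24h_Ctrl arrays by rno-miR-146a-5p (3 of 3 in 24h_Cyt) and rno-miR-203a-3p (2 of 3 in 24h_Cyt), so their differences start from a group at background. The other, rno-miR-223-3p, met the background rule on no array, like rno-miR-181a-5p, rno-miR-181b-5p and rno-miR-181c-5p, so no fold is read from its call. Within the list, rno-miR-146a-5p, known for dampening NF-κB signalling, was also called in 24h_Giv_Cyt vs 24h_Giv_Ctrl, 24h_Cyt vs 6h_Cyt, 24h_Giv_Cyt vs 6h_Giv_Cyt and 24h_Giv_Cyt vs 24h_Cyt, comparisons in which 0 of 4 family members were. In 24h_Cyt vs 6h_Cyt, rno-miR-223-3p was called too, with the lower signal in 24h_Cyt, and in 8 of 21 alternatives. The call of rno-miR-146a-5p in 24h_Giv_Cyt vs 24h_Cyt was kept in 6 of 21 alternatives and lost with the slide or the replicate number as a block, and its other calls in these comparisons were kept in all 21.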

How the data were processed

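Per the file headers and labels, the deposited scanner files hold spot intensity values made by the authors with Agilent Feature Extraction (version 10.7.3.1 in the headers, 9.1 in the processing notes), and the deposited table holds log2 values that the authors had quantile-normalized. The median foreground intensity of the 12128 spots of 758 miRs, on 24 arrays, was quantile-normalized without background subtraction, taken to log2 and averaged over the 16 spots of a miR. The spot medians of these values matched the deposited log2 table to within 5e-09.

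Groups were compared on array means with limma 3.58.1 in R 4.3.3, as 8 group means with 16 residual degrees of freedom, in 12 comparisons and 3 interaction terms, with p adjusted (Benjamini-Hochberg) over 758 miRs per comparison. The study fitted single spots with 1 pooled correlation, which was 0.0373 here. That fit was kept as an alternative, because spots of an array are not separate samples. The code was tested on simulated data. Python 3.11.15 with matplotlib 3.10.9 made the figures.

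The text names the 4 members, the 6 other arms of their hairpins, any miR with the same seed, the called miRs of a list of 16 tied to inflammation, and the nearest miRs of each member well above background on all 24 arrays. No member was, so the nearest miRs of rno-miR-181d-5p were chosen after its values were seen. Members and lists were chosen with earlier results of these data known. The background rule of 8 of 16 spots was set after the files were seen.

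The replicate numbers were checked as pairs. Of 36 correlations between same-numbered arrays, 18 were over 0.1, and all 3 pairs of a comparison were so in 2 of 12 comparisons, 24h_Cyt vs 24h_Ctrl (0.259 to 0.664, each array best with its own number) and 24h_Cyt vs 6h_Cyt (0.121 to 0.716). No label says that a number marks a shared culture or day, so the reported fit had no pairing, and a fit with the replicate number as a block was run as an alternative for all comparisons. Alternatives changed a choice of spot summary, probe, signal, scaling, slide, block, fitted groups or threshold, or left out 1 array. Those with processed or total gene signal changed signal and scaling together and set a floor. No array was left out of the reported values, and 0 spots were saturated. Precision was limited by the 3 arrays in each group and, if these are technical replicates, by the number of cultures, which no label gives.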

Additional observations from a re-analysis of the deposited data

How the results depend on the processing

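Over 60 log2 fold changes of members (12 comparisons and 3 interaction terms) and 20 alternatives, 978 of 1200 values kept their direction and their side of the call, 130 changed sign without a call in either, 66 became 0 because the member lay at the floor, 10 lost a call, 12 gained one and 4 turned. By construction 5 of these alternatives cannot move a log2 fold change and 1 repeats another, and over the other 14, 634 of 840 values kept both. With each of 24 arrays left out, 1396 of 1440 values kept both. Leaving out an array outside the compared groups cannot move a log2 fold change, so part of these values were fixed beforehand. The fits without outlier spots and with array brightness as a covariate and the higher threshold (0.20 in log2) were chosen after seeing the data. Testing only miRs that met the background rule on all arrays of a group gave no value, since no member did. Signal over background limits the results of all 4 members.

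For rno-miR-181d-5p in 24h_Cyt vs 24h_Ctrl (-0.16), the value turned to 0.18 (adjusted p = 0.0999) without normalization between arrays. No call was made with the median over spots or, identically, the deposited log2 table (-0.15), the shortest probe (-0.089) or normexp with an offset of 50 (-0.088). Nor was one made with processed signal with detected miRs as the scale (-0.63), the total gene signal (-0.27), the slide as a fixed block (-0.19), brightness as a covariate (-0.11) or the higher threshold (-0.16). Without slide 1, which leaves 24h_Cyt replicate 3 alone in its group, the value was -0.12. With 1 array left out it ran from -0.18 to -0.14 and was called in 21 of 24 fits. Leaving out an array outside 24h_Cyt and 24h_Ctrl cannot move this log2 fold change. Each fit that lost the call left out an array of 24h_Cyt or 24h_Ctrl. In 24h_Giv_Cyt vs 24h_Giv_Ctrl (-0.12) the unnormalized value turned to 0.22 with a call, as it did for rno-miR-181b-5p (0.21) and rno-miR-181c-5p (0.19). For rno-miR-181d-5p the processed signal scaled to all miRs gave a call (-0.55), the total gene signal 0.0031, and left-out arrays -0.13 to -0.10. In 24h_Cyt vs 6h_Cyt it was 0.16 without normalization and -0.13 to -0.085 with an array left out. In 24h_Giv_Cyt vs 6h_Giv_Cyt it was -0.41 with a call with the processed signal scaled to all miRs, 0.0092 with the total gene signal, 0.17 without normalization and -0.13 to -0.089 with an array left out. The cause of these changes was not tested.

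Among all 758 miRs, the 31 called in 24h_Cyt vs 24h_Ctrl (20 higher, 11 lower) became 173 without normalization (all higher). They became 69 (41 higher) and 10 (4 higher) with the processed signal scaled to detected or all miRs, and 50 (35 higher) with the total gene signal. They were 48 in the pooled fit, 3 with brightness as a covariate, 1 with the slide as a fixed block, and 14 to 44 with an array left out. The fit without slide 1 is not counted here, because it leaves 24h_Cyt replicate 3 alone in its group. The 4 called in 24h_Giv_Cyt vs 24h_Giv_Ctrl ranged from 1 to 323, the 6 in 24h_Cyt vs 6h_Cyt from 2 to 122 and the 3 in 24h_Giv_Cyt vs 6h_Giv_Cyt from 1 to 21, each highest without normalization. The 1 in 24h_Giv_Cyt vs 24h_Cyt ranged from 0 to 24, and the 0 in 24h_Ctrl vs 6h_Ctrl and in 6h_Giv_Cyt vs 6h_Cyt reached 35 and 21. The total gene signal left rno-miR-181c-5p at its floor on 20 of 24 arrays, so its values of 2.60 there measure the floor.

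The replicate number as a block gave -0.16 (adjusted p = 0.00946) for rno-miR-181d-5p in 24h_Cyt vs 24h_Ctrl and changed no call of a member.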
